A study of Mus musculus with 2 samples.

Results

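The 10 genes described here encode proteins that coat lipid droplets (Plin2, Plin3), release fatty acids from stored fat (Pnpla2, its co-activator Abhd5 and its inhibitor Hilpda, and the lysosomal lipase Lipa) or take up and carry fatty acids (Lpl, Cd36, Fabp4, Fabp5). They were picked by symbol, with no measured value in the rule, and all 10 were found among the 34745 gene rows of the deposited RNA-seq table. The study compared 2 libraries of primary bone marrow-derived macrophages from C57BL/6 mice, both given LPS (lipopolysaccharide of the bacterial outer membrane, a macrophage activator). One culture had received a control antisense oligonucleotide (Control-ASO, 14215397 gene counts). The other had received an oligonucleotide named for Acly, which encodes ATP citrate lyase, a source of acetyl-CoA in the cytosol (AclyE14-ASO, 12751076 gene counts). Each group was 1 library, the sources used here give no LPS dose or time, and nothing in the labels says how many mice contributed. Every difference therefore lies between 2 single cultures, without a replicate check and without a p-value.

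Macrophages store surplus fatty acids and cholesterol as neutral lipid in droplets, which perilipins cover and shield. Cytosolic lipolysis starts with adipose triglyceride lipase, the product of Pnpla2, which Abhd5 switches on and Hilpda restrains. Lipoprotein lipid takes another route, in which lysosomal acid lipase, the product of Lipa, cleaves cholesteryl esters and triglycerides inside the lysosome. Fatty acids reach the cell through lipoprotein lipase at the surface and the scavenger receptor CD36, and are carried in the cytosol by fatty acid binding proteins. Activated macrophages are known to fill with droplets.

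Acly itself had 1549 counts with the control oligonucleotide and 768 with the AclyE14-ASO, a ratio per library total of 0.553 (0.506 to 0.603). The labels do not say whether the oligonucleotide lowers total Acly RNA, and neither group had a replicate. The ratio therefore cannot show that the labels are right.

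The genes divided by direction. Lipa and Hilpda were higher in the AclyE14-ASO library, by 3.62-fold and 2.13-fold in counts per library total. Fabp4, Abhd5, Pnpla2 and Plin2 were lower, by 1.92-fold, 1.90-fold, 1.73-fold and 1.69-fold. Lpl, Plin3, Fabp5 and Cd36 were within 1.5-fold, all on the lower side. A gene was called higher or lower when its FPKM + 1 differed by 1.5-fold or more, a limit of size that stands in for a test. FPKM are counts per kilobase of gene length, scaled to the library's depth. By this limit 2 of the 10 genes were higher, against 7.03% of the 8658 genes averaging 1 FPKM or more (the measured genes), and 4 were lower, against 8.48%. All 10 genes averaged 10 FPKM or more, and among the 3135 genes at that level 6.76% were higher and 9.28% lower.

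Several of the 10 genes are also known from other cell types, so their markers were read in the same libraries. All 8 macrophage markers were present, with Lyz2 at 9798 and 12276 FPKM, Csf1r at 64.7 and 50.7 FPKM and Cd14 at 1020 and 2270 FPKM. Of the 8, 3 were higher and 1, Cd68, was lower, against 7.03% and 8.48% of all measured genes. One of the higher, Itgam, shares its locus with Gm49368 (1834 and 6 counts), and the counts of both together had a ratio of 1.60 (1.53 to 1.68). Fabp4, Lpl and Cd36 are abundant in fat cells, but 8 of 9 adipocyte markers, Adipoq and Plin1 among them, had 0 counts in both libraries and only Lipe was measured. Fabp4 and Cd36 also mark capillary endothelium. Of 9 endothelial markers 2 were measured, Kdr (11.1 and 5.49 FPKM) and Cdh5 (1.09 and 1.97 FPKM), while Pecam1 had 4 and 2 counts and Tek, Emcn and Cldn5 were at 0. Kdr was lower as Fabp4 was, and its part in that result was not tested.

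Fibroblast and stromal markers were higher in the AclyE14-ASO library. Of 11 listed 8 were measured and all 8 were higher, against 7.03% of all measured genes. However, Pdgfra and Thy1 passed the filter only through the AclyE14-ASO library. The summed level over the list was 49.3 FPKM in the Control-ASO library and 216 FPKM in the AclyE14-ASO library. Tagln was the most abundant by the mean of both libraries (12.6 and 71.9 FPKM), Acta2 was at 13.3 and 43.7 FPKM, Col1a1 was at 2.99 and 20.2 FPKM, and Thy1 had 6 and 76 counts.

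Promoter sequences of the genes past 1.5-fold are shown first, so that members that differed in opposite directions can be compared in their upstream DNA. RefSeq windows (GRCm38.p6, 250 bases before to 50 after the start, written along the gene's strand) existed for 7 of the 10 genes in 8 windows, 2 of them for Hilpda. No window was matched for Fabp4, Fabp5 and Lpl. The windows of Lipa and Hilpda, both higher, and of Plin2, Pnpla2 and Abhd5, all lower, are printed, except the first of Hilpda, which overlaps the second and held no match. Capitals mark letters that matched 1 of 4 short motifs on either strand.

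Lipa, chr19:34527425-34527724, minus strand: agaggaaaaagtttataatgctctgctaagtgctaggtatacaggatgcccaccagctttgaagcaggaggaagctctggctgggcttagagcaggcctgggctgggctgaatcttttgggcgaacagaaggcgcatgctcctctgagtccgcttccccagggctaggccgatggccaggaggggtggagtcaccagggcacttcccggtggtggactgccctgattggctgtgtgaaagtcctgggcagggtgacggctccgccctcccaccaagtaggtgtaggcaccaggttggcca
Hilpda, second window, chr6:29272376-29272675, plus strand: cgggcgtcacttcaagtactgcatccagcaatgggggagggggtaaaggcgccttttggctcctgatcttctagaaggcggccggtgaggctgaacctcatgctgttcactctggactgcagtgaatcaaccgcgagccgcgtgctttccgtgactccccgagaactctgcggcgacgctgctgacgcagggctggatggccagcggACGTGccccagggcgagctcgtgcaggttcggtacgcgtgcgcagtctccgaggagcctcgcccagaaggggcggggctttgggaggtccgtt
Plin2, chr4:86670010-86670309, minus strand: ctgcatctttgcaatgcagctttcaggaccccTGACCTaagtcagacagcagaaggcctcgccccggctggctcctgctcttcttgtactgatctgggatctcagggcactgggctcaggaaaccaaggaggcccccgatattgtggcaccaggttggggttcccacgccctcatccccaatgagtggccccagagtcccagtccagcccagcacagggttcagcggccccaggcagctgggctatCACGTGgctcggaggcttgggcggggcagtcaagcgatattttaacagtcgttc
Pnpla2, chr7:141454938-141455237, plus strand: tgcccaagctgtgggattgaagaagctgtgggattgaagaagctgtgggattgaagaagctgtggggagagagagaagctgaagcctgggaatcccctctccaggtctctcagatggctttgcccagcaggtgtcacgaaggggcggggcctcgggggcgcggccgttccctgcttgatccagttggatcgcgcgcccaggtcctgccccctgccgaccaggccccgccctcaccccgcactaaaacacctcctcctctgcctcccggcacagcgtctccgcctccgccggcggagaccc
Abhd5, chr9:122351366-122351665, plus strand: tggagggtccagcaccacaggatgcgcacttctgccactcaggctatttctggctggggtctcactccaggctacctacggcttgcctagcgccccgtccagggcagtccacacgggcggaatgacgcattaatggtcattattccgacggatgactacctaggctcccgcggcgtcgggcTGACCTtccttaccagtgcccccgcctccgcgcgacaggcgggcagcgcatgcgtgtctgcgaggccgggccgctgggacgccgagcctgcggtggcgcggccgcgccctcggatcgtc

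The motifs were AGGTCA, the half-site of nuclear receptors such as the PPARs; CACGTG, an E-box; ACGTG, one form of the core bound by hypoxia-inducible factors, which also occurs inside every CACGTG; and TGACTCA, an AP-1 site. AGGTCA was found 218 bases before the start of Plin2, 69 before that of Abhd5 and 228 before that of Cd36. It occurred in 16.3% of all 32851 windows of 300 bases. CACGTG lay 4 bases before the start of Plin2, against 7.15% of windows, and both ACGTG matches of Plin2 were inside it. ACGTG lay 43 bases before the second start of Hilpda, against 19.6% of windows. TGACTCA, present in 5.20% of windows, was in none of the 8. These are matches of letters and not binding sites, and windows of Lipa, Pnpla2 and Plin3 without a match say only that these letters are not there.

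The droplet coat was represented by Plin2 and Plin3. Plin2 encodes perilipin 2, the main coat protein of droplets outside fat tissue (ENSMUSG00000028494, chromosome 4, 86648386 to 86670060, minus strand, GRCm38). It had 29711 counts and 399 FPKM with the control oligonucleotide and 15760 counts and 236 FPKM with the AclyE14-ASO. The Control-ASO library was the high one. The count ratio, AclyE14-ASO over Control-ASO and relative to the library totals, was 0.591, with an exact 95% interval (Clopper-Pearson) of 0.580 to 0.603. Such intervals cover counting error only and leave out differences between cultures, since each group was 1 library. They treat every read as a separate molecule, which reads need not be, so they can be too narrow. In bulk RNA, fewer cells of a type and less RNA per cell cannot be told apart. The log2 ratio of FPKM + 1 was -0.76, and 3.73% of the measured genes were below it.

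Plin3 encodes perilipin 3, which moves between the cytosol and new droplets (ENSMUSG00000024197, chromosome 17, 56277476 to 56292873, minus strand). It stood at 50.3 and 40.4 FPKM (1543 and 1111 counts). Its ratio of 0.803 (0.742 to 0.868) was within 1.5-fold, and its interval did not include 1. The balance of the pair was lower for Plin2 in the AclyE14-ASO library. There were 19.3 Plin2 counts for each Plin3 count with the control oligonucleotide and 14.2 with the AclyE14-ASO, a change by a factor of 0.737 (0.680 to 0.798). A change of 2 genes against each other within a library does not depend on how the libraries are scaled. Plin1, Plin4 and Plin5, the perilipins of fat cells and oxidative tissues, had 0, 0 and 0 counts with the control oligonucleotide and 0, 1 and 0 with the AclyE14-ASO, so Plin2 made up 88.8% and 85.4% of summed perilipin FPKM.

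**Figure D1:**
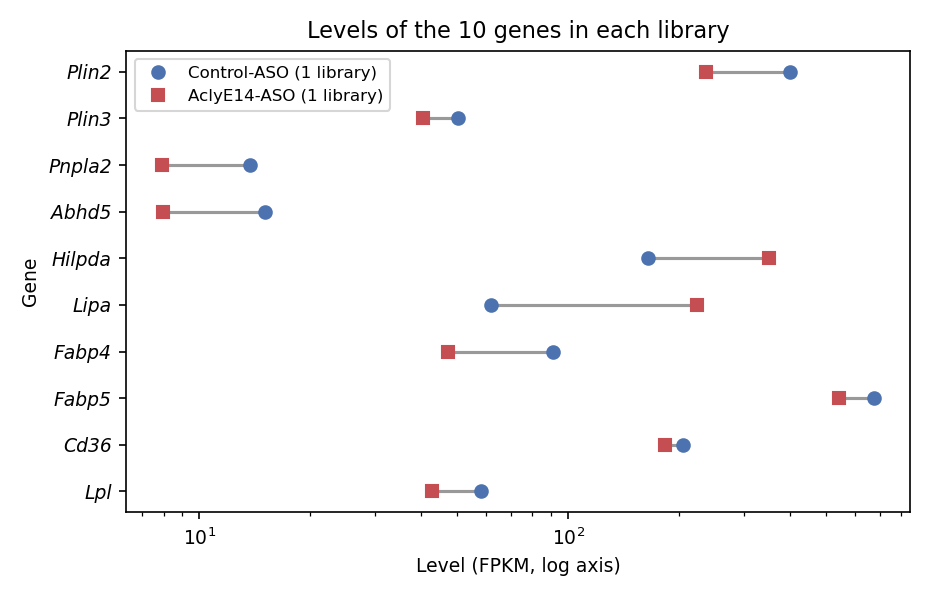
Levels of the 10 genes in FPKM on a log axis, with a circle for the Control-ASO library and a square for the AclyE14-ASO library (1 library each, no error bars). The square lies to the right of the circle for Hilpda and Lipa, and to the left for the other 8 genes.

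Cytosolic lipolysis genes differed in both directions. Pnpla2, the lipase gene (ENSMUSG00000025509, chromosome 7, 141455198 to 141460743, plus strand), had 1359 counts and 13.7 FPKM with the control oligonucleotide and 705 counts and 7.91 FPKM with the AclyE14-ASO. The ratio was 0.578 (0.527 to 0.634). Abhd5, also called CGI-58, is the protein that activates this lipase (ENSMUSG00000032540, chromosome 9, 122351608 to 122381524, plus strand). It had 905 counts and 15.1 FPKM against 428 counts and 7.95 FPKM, a ratio of 0.527 (0.469 to 0.592). An antisense gene on the other strand, A730085K08Rik, had 0 counts in both libraries. Lipase and co-activator were thus lower by similar factors. The number of Abhd5 counts per Pnpla2 count was 0.666 and 0.607, a change by 0.912 with an interval of 0.785 to 1.06, which includes no change.

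Hilpda encodes a small droplet protein that is induced by hypoxia and by fatty acids and that inhibits the same lipase (ENSMUSG00000043421, chromosome 6, 29272488 to 29275446, plus strand). It was at 165 FPKM (3836 counts) with the control oligonucleotide and at 351 FPKM (7344 counts) with the AclyE14-ASO. The AclyE14-ASO library was high here, with a ratio of 2.13 (2.05 to 2.22) and a log2 ratio of 1.09, above 97.4% of measured genes. Set against its target, Hilpda had 2.82 and 10.4 counts per Pnpla2 count, a change of 3.69-fold (3.34 to 4.08). Per length, the inhibitor exceeded the lipase by 12.0-fold and 44.4-fold in deposited FPKM, and by 5.17-fold and 19.1-fold when counts were divided by the length of 1 principal transcript. These are transcript ratios, and neither protein nor lipase activity was measured.

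Lipa had the largest difference of the 10 genes. It encodes lysosomal acid lipase (ENSMUSG00000024781, chromosome 19, 34492318 to 34527474, minus strand) and was at 61.8 FPKM (2702 counts) and 224 FPKM (8784 counts). The ratio was 3.62 (3.47 to 3.79), and only 0.474% of measured genes had a higher log2 ratio than its 1.84. Relative to Pnpla2, the lipase of the cytosolic route, it had 1.99 and 12.5 counts per count, a change by a factor of 6.27 (5.66 to 6.94). The stromal marker genes described above were also higher in that library, and their part in the Lipa and Hilpda values was not tested. No annotated gene overlapped Lipa, and no other annotated transcript shared a stretch of 75 bases at 95% identity with it.

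**Figure D2:**
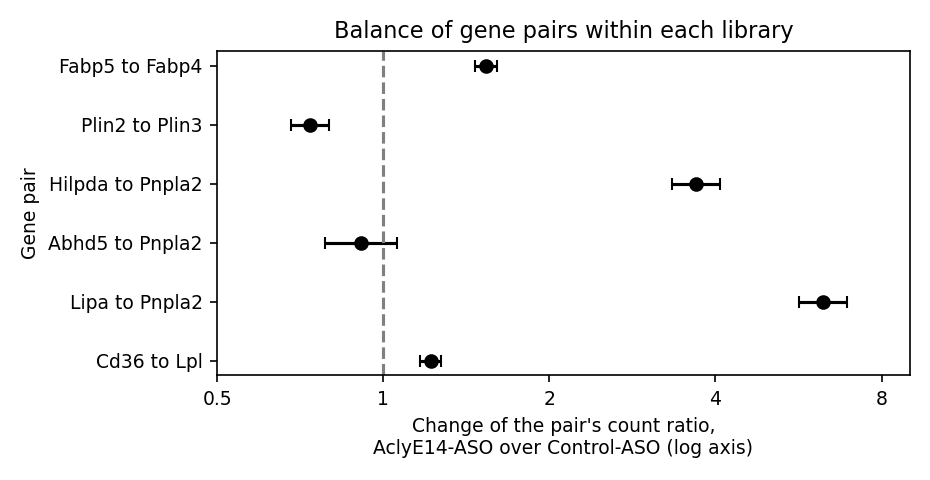
Change between the libraries of the count ratio of 6 gene pairs, on a log axis; points are exact conditional odds ratios and bars their 95% intervals for counting error. Lipa to Pnpla2 and Hilpda to Pnpla2 lie furthest to the right, at 6.27 and 3.69, and the bar of Abhd5 to Pnpla2 crosses the dashed line at 1.

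The fatty acid binding proteins carry fatty acids through the cytosol. Fabp4, which is abundant in fat cells and in lipid-laden macrophages (ENSMUSG00000062515, chromosome 3, 10204088 to 10208576, minus strand), had 6615 counts and 90.8 FPKM against 3092 counts and 47.3 FPKM. With a ratio of 0.521 (0.499 to 0.544) it was the lowest of the 10 genes. On the same chromosome, Fabp5 (ENSMUSG00000027533, chromosome 3, 10012548 to 10016607, plus strand) was the most abundant of the 10 in both libraries. Fabp5 had 40578 counts and 676 FPKM against 29169 counts and 541 FPKM, a ratio of 0.801 (0.789 to 0.814) that stayed within 1.5-fold. The pair shifted towards Fabp5, from 6.13 to 9.43 Fabp5 counts per Fabp4 count, a factor of 1.54 (1.47 to 1.61). Of the other family members that were looked up, Fabp3, the heart form, was at 258 and 188 FPKM and Fabp7, the brain form, at 11.7 and 25.4 FPKM. Fabp1, Fabp2 and Fabp6 were listed at 0.

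Both uptake genes were within 1.5-fold, and Cd36 differed least of the 10. Cd36, the scavenger receptor and fatty acid transporter (ENSMUSG00000002944, chromosome 5, 17781690 to 17888801, minus strand), was at 205 and 183 FPKM (24327 and 19506 counts), a ratio of 0.894 (0.877 to 0.911). Its log2 ratio of -0.16 was near the -0.13 of the median measured gene, and 46.2% of measured genes were lower. Lpl, lipoprotein lipase (ENSMUSG00000015568, chromosome 8, 68880491 to 68907448, plus strand), was at 58.1 and 42.6 FPKM (6325 and 4164 counts), with a ratio of 0.734 (0.706 to 0.763). Cd36 gained on Lpl by a factor of 1.22 (1.17 to 1.27).

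The 8 genes on the lower side have to be read against the table as a whole. The median log2 ratio was -0.38 over the 10 genes, -0.13 over all measured genes and -0.10 over genes of at least 10 FPKM. The quartiles of measured genes were -0.34 and 0.12, so Plin3 at -0.31, Fabp5 at -0.32 and Cd36 were between them and Lpl at -0.44 was lower. Centring on the median gene at or above 5 FPKM raised each ratio by 0.13. The calls of the 10 genes were the same 2 higher and 4 lower, while Cd36 came to -0.03, Plin3 to -0.18 and Fabp5 to -0.19. Among all measured genes that centring turned the balance, from 7.03% higher and 8.48% lower to 9.83% higher and 4.69% lower.

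**Figure D3:**
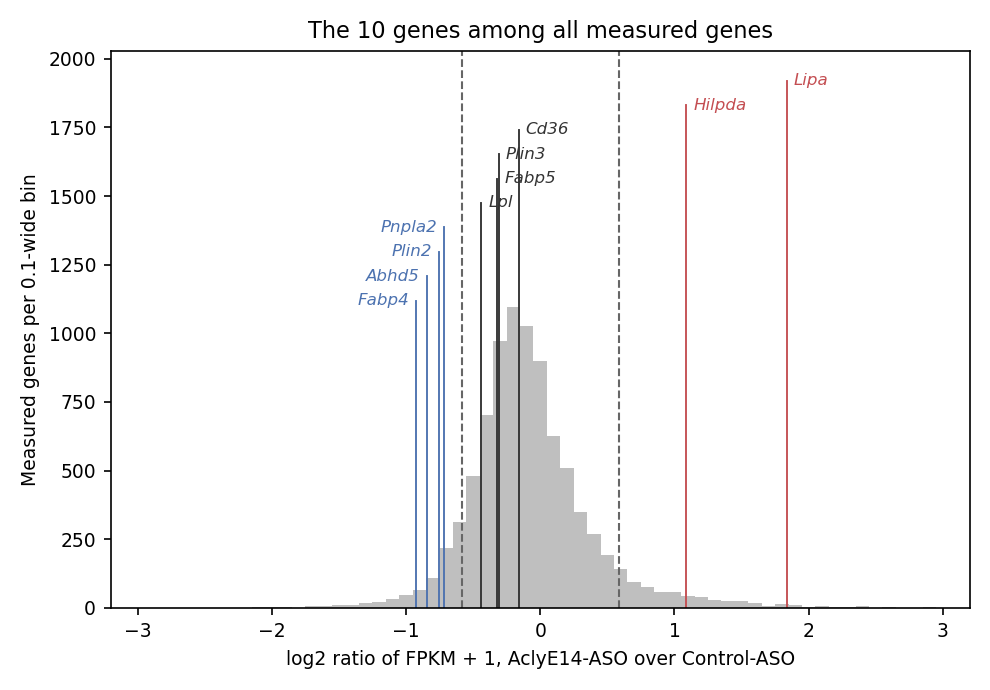
Histogram of the log2 ratio of FPKM + 1 over the measured genes, in bins 0.1 wide, with vertical lines at the 10 genes and dashed lines at 1.5-fold; the heights of the gene lines only separate the labels, and 7 genes beyond the axis are not drawn. Lipa at 1.84 and Hilpda at 1.09 stand in the right tail, and Fabp4, Abhd5, Plin2 and Pnpla2 lie left of the lower dashed line.

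How abundant the genes were relative to each other depended on gene length. The deposited FPKM imply a length for each gene that was from 0.592 to 5.72 times that of its principal transcript (GENCODE M21, APPRIS label). Fabp4 was scaled to 5127 bases, although its principal transcript has 896, and Cd36 to 8348 bases against 3399. For Fabp4, Fabp5 and Hilpda the implied length equalled the summed lengths of both annotated transcripts. It did not for the rest of the 10 genes. The same sum matched only 3.97% of 6870 genes with 2 or more transcripts and at least 100 counts in both libraries. The rule behind the deposited lengths was therefore not identified. Counts per 1000000 and kilobase of the principal transcript placed Fabp4 at 519 and 271 in place of 90.8 and 47.3 FPKM, which moved it from rank 5 to rank 3 of the 10 genes in the Control-ASO library. Fabp5 stayed first (2892 and 2318), Plin2 had rank 2 in both libraries (1107 and 655), and Abhd5 came last (20.2 and 10.6). The ratio between the libraries is the same under both lengths, apart from the added 1.

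**Figure D4:**
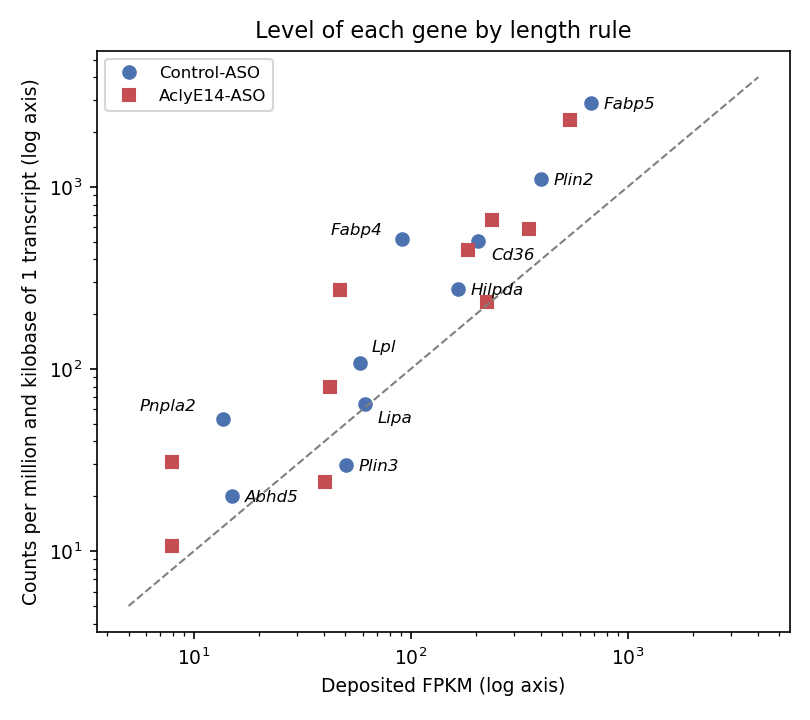
Deposited FPKM (horizontal) against counts per 1000000 and kilobase of 1 principal transcript (vertical) for the 10 genes, both axes log, with a circle for Control-ASO and a square for AclyE14-ASO; gene names stand beside the circles and the dashed line marks equal values. Fabp4, Fabp5 and Pnpla2 lie well above the line, and Plin3 below it.

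Around these genes, 8 lists of pathway neighbours held 160 further genes of the table, of which 106 had a mean of at least 1 FPKM. By the 1.5-fold limit 15 were higher, 9 lower and 82 between, with a median log2 ratio of 0.03. That is 14.2% higher and 8.49% lower, against 7.03% and 8.48% of all measured genes, so the lower share was near that of the table. Angptl4 and Hspg2, among the higher genes, reached the filter only through the AclyE14-ASO library. With centring the counts were 22 higher (20.8%) and 6 lower (5.66%), against 9.83% and 4.69% of all measured genes. Ethe1, Mcoln1 and Scarb1 were then no longer lower, and Abhd4, Cebpb, Galc, Hexa, Lipg, Olr1 and Ppard were higher. Droplet coat and biogenesis genes were near the measured genes as a whole, with 0 higher and 1 lower. Of 16 measured droplet coat and biogenesis genes 15 lay between (median -0.12), among them Rnf213, a ubiquitin ligase found on droplets and the most abundant of the list (128 and 102 FPKM), and Dgat1, which makes triglyceride (5.94 and 5.93 FPKM). Only Ethe1, a mitochondrial sulfur dioxygenase, was lower (7.35 and 4.44 FPKM), and it was within the limit after centring.

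Of 12 other measured lipolysis genes 1 was higher and 11 were between, with a median of -0.003. Among all measured genes 7.03% were higher and 8.48% lower. Mgll, the monoglyceride lipase of the last step, was higher (2.88 and 4.95 FPKM, ratio 1.72, 1.49 to 1.98), Lipe, hormone-sensitive lipase, stood at 3.01 and 2.63 FPKM and Abhd12, the most abundant, at 30.4 and 30.6 FPKM. G0s2, a second inhibitor of Pnpla2, was listed at 0 counts in both libraries, where a count of 0 allows up to 0.211 and 0.235 counts in a library scaled to 1000000. A 0 in this table need not mean absence. Ppia and Rps6, which every cell uses, had only 57 and 59 counts and 31 and 24 counts.

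Among 10 measured genes of fatty acid binding, transport and activation 2 were higher and 2 lower (median 0.12). The shares of all measured genes were 7.03% and 8.48%. Both measured fatty acid transport proteins were lower, Slc27a1 (27.3 and 15.8 FPKM, ratio 0.579, 0.522 to 0.642) and Slc27a4 (9.13 and 5.10 FPKM, ratio 0.558, 0.484 to 0.642). Fabp7 and the acyl-CoA binding protein Dbi (42.0 and 66.3 FPKM) were higher. Fabp3 was the most abundant of that list. The acyl-CoA synthetases, which activate fatty acids, were within the limit, with Acsl5 at 43.8 and 56.2 FPKM and Acsl1 at 11.3 and 8.98 FPKM.

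Of the partners of lipoprotein lipase 12 were measured. By the same limit 5 were higher, 0 lower and 7 between (median 0.39), against 7.03% higher and 8.48% lower among all measured genes. Angptl4 and Hspg2 reached the filter only through the AclyE14-ASO library, where they are high. Angptl4, an inhibitor of lipoprotein lipase, had 45 and 186 counts (ratio 4.61, 3.31 to 6.53). Apoe, the most abundant, stood at 446 and 956 FPKM, Sdc4, a heparan sulfate proteoglycan, at 96.2 and 191 FPKM, and Sel1l, which helps the lipase mature, at 8.75 and 13.8 FPKM. Hspg2, a basement membrane proteoglycan made by stromal cells, had 141 and 813 counts. Gpihbp1, which anchors the lipase on endothelium, was listed at 0.

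Lipoprotein and scavenger receptors other than Cd36 were mixed. Msr1, scavenger receptor A, was higher (38.6 and 72.1 FPKM), while Scarb1, scavenger receptor B1 (4.41 and 2.56 FPKM), and Cd68, the most abundant of the 10 measured (1059 and 590 FPKM), were lower. Scarb1 was within the limit after centring. The receptor Cd36 itself lay between them.

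Lipa can be set beside 21 measured genes of the lysosome and its lipid handling. Of these 5 were higher, 1 was lower and 15 lay between, with a median of 0.09. Among all measured genes 7.03% were higher and 8.48% lower. The higher genes were Asah1, acid ceramidase (37.0 and 66.2 FPKM), the membrane proteins Lamp1 (1036 and 1637 FPKM) and Lamp2 (48.2 and 79.7 FPKM), the protease Ctsd, the most abundant by the mean of both libraries (2678 and 4241 FPKM), and the thioesterase Ppt1 (11.8 and 18.2 FPKM). Asah1, with a ratio of 1.79 (1.71 to 1.88), came closest to Lipa at 3.62 and still lay below it. Psap, the precursor of the saposins, exceeded Ctsd in the Control-ASO library (3580 and 3004 FPKM). The lower gene was the calcium channel Mcoln1 (13.7 and 8.33 FPKM), which was within the limit after centring. Npc1 and Npc2, which pass on the cholesterol that Lipa releases, were at 11.9 and 15.7 FPKM and at 1013 and 1053 FPKM.

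Of 14 measured lipid-sensing regulators 2 were lower and 0 higher (median -0.16), against 8.48% and 7.03% of all measured genes. With centring, and with TMM, 2 were higher and 2 lower, since Cebpb and Ppard then passed the limit. Pparg, the nuclear receptor whose known targets include Fabp4, Cd36, Lpl and Plin2, had 296 and 131 counts, 5.02 and 2.48 FPKM, a ratio of 0.493 (0.399 to 0.608). Cebpa, its partner in fat cells, was at 6.76 and 2.46 FPKM. Hif1a was at 19.9 and 20.8 FPKM, and Cebpb was the most abundant at 98.2 and 140 FPKM. Of 13 measured PPAR target genes outside the 10, 2 were higher and 0 lower (median 0.10), against 7.03% and 8.48% of all measured genes. The higher ones were Angptl4, which reached the filter only through the AclyE14-ASO library, and the phospholipid transfer protein Pltp (792 and 1420 counts). Tgm2, the most abundant, was at 128 and 127 FPKM.

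**Figure D5:**
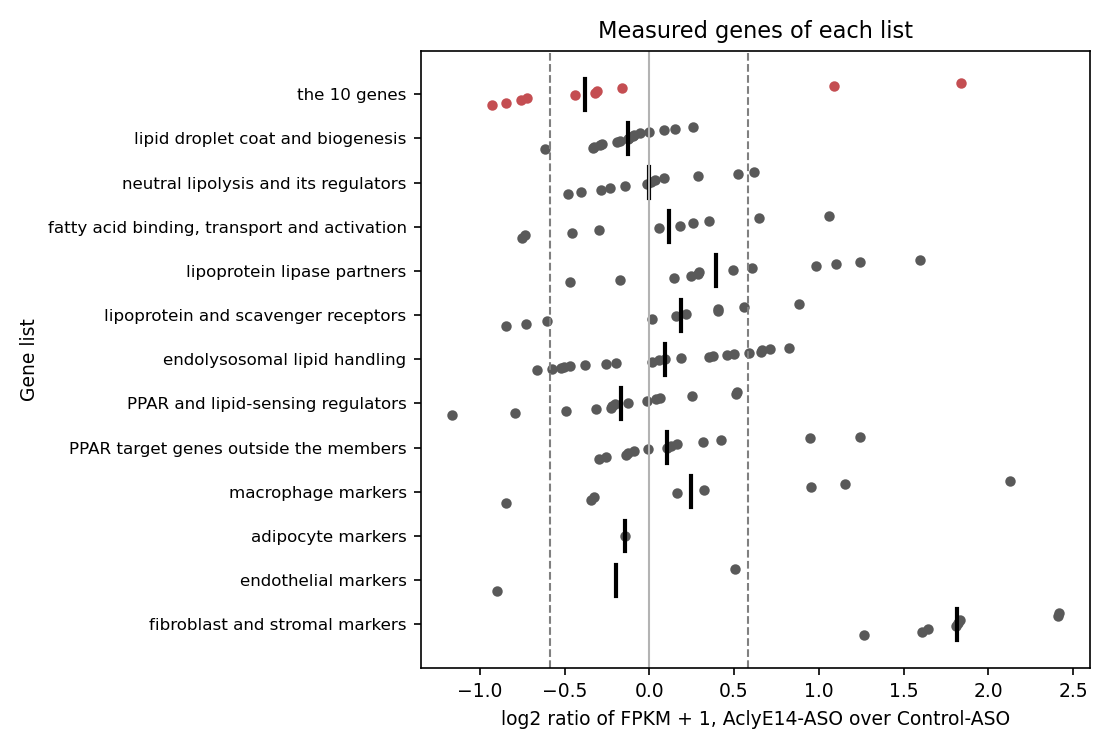
Log2 ratio of FPKM + 1 for each measured gene of each list (points, spread vertically for legibility), with the list's median as a black bar and dashed lines at 1.5-fold. The 10 genes (red) reach from -0.93 to 1.84 with a median of -0.38, and the fibroblast and stromal markers lie furthest right, with a median of 1.82.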

How the data were processed

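The authors deposited 1 table with raw gene counts and FPKM for both libraries, per the file headers. The submitters' processing notes name mm10 and the tools edgeR, HISAT2 and StringTie 1.3.0, without roles. The strand setting, the length behind FPKM and the handling of reads that map to several genes: not given in the sources used here. Deposited FPKM equalled counts per library total and a fixed length per gene, to within 0.000909% between the libraries. Symbols came from GENCODE M21 (GRCm38) for 34267 identifiers; the other 478 held 0.175% and 0.136% of counts and stayed in the totals.

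From these values, log2 ratios of FPKM + 1 were computed for genes averaging 1 FPKM or more, and ratios of counts per library total with exact 95% intervals. No test was run, with 1 library per group. All 10 genes, and from each list the genes past 1.5-fold and the most abundant one, were to be named; any further gene was chosen with its values in view. One gene that this rule would name is not reported here. The members and lists were chosen with earlier results of these data known. Principal transcripts were the best-ranked APPRIS transcripts, the longest where several shared a rank. Close copies were searched with blastn at 95% identity over 75 bases. Alternatives were other pseudocounts, centring, TMM factors (edgeR 4.0.16, R 4.3.3), other filters and limits, summed rows, and a total without the 20 most abundant genes; the lengths of principal transcripts were added after seeing the data. Python 3.11.15, NumPy 2.4.6, pandas 2.3.3, SciPy 1.17.1 and matplotlib 3.10.9 were used. The calls and intervals were run on simulated counts with counting error only and planted differences well past 1.5-fold. That run checks the code and says nothing about differences between cultures or calls near the limit.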

Additional observations from a re-analysis of the deposited data

How the results depend on the processing

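The calls of all 10 genes held under a pseudocount of 0.1 FPKM, centring on the median gene and FPKM rescaled by TMM. They also held with count ratios without a pseudocount, summed rows and a library total without the 20 most abundant genes. The summed rows added only Fabp5l2 (4 and 3 counts) to Fabp5, so no other call could change there. Rows that share stretches with Plin3 and Lpl were not added. With a pseudocount of 5 FPKM Pnpla2 (-0.53) was within 1.5-fold and 9 of 10 calls held. Under these 7 settings all 10 genes kept their direction. At a limit of 2-fold 2 genes were higher and 0 lower. The share of all measured genes past 2-fold was not computed, so these counts have no background beside them. The median log2 ratio of the 10 genes, -0.38, came to -0.25 with centring and -0.28 with TMM, and the median count ratio of 0.768 came to 0.824 with TMM library sizes, because both scalings raise every ratio (TMM by 0.10 on the log2 scale of counts). Of the 106 pathway neighbours 15 were higher and 9 lower as deposited, and 20 and 6 with TMM. With TMM 8.67% of all measured genes were higher and 5.84% lower, against 7.03% and 8.48% as deposited. Plin3 shares stretches of at least 75 bases at 95% identity with 70 other annotated genes and Lpl with 74, Fabp5 with 5, Abhd5 with 2 and Plin2 with 1, so reads of these genes may have been split or dropped; 0 genes overlap any of the 10 on the same strand. No paired analysis was possible because each group has 1 library. The lowest count behind a value of the 10 genes was 428, which gives a log2 half-width of 0.17.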
